A study of Xenopus laevis with 2 samples.

Results

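The genes described here encode plasma proteins, apolipoproteins, serpins and the lipid-handling proteins that share their names in heart tissue of the frog Xenopus laevis. They were chosen by a rule on gene symbols that uses no measured value, though it was written with earlier results of these data known, and gave 50 of the 8879 listed transcripts, or 45 gene symbols. They fell into 12 rows of carrier and inhibitor proteins of plasma, 8 of fibrinogen and coagulation factors, 13 of serpins, 4 of apolipoproteins, 6 of lipoprotein receptors, scavenger receptors and related genes, 5 of fatty acid-binding proteins and 2 of the APOO family. The symbols do not make a single compartment. APOO proteins sit in the mitochondrial inner membrane, fatty acid-binding proteins and clade B serpins act largely inside cells, and the receptors are membrane proteins.

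Polyadenylated RNA was sequenced from hearts of sibling tadpoles at stage 44 to 45, which had been injected at fertilization with Control-MO (the control-MO group) or Tcf21-MO (the Tcf21-MO group). Morpholinos are antisense oligomers that stop an RNA from being translated or spliced, and Tcf21 is a transcription factor of the epicardium, the outer cell layer of the heart. Embryos of both groups were kept at 16 to 23 °C, and each group was 1 library from 70 to 100 pooled hearts. Injection at fertilization reaches the whole embryo, so the depletion is not restricted to the heart, and which of these steps Tcf21-MO blocks is not in the labels. There were no replicates. No p-value was computed, and every ratio compares 2 libraries, not 2 conditions.

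Most plasma proteins are made by hepatocytes and secreted into blood, where albumin and transferrin carry small molecules and iron, fibrinogen is cut by thrombin to form the clot, and serpins trap and inactivate proteases. Apolipoproteins coat the lipoprotein particles that carry lipid between tissues, and receptors of the LDL receptor family take these particles up. Heart muscle burns fatty acids and holds a cytosolic fatty acid-binding protein of its own.

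The control-MO library held 17636925 reads and the Tcf21-MO library 17767221. At this depth, 0 reads allow a true count of up to 3, or 0.168 and 0.171 CPM (counts scaled for library size) in the control-MO and Tcf21-MO libraries. These limits and all intervals below, except those of medians, cover counting error only, and amplified reads can stem from the same molecule. Intervals of medians are 95% order-statistic intervals over rows, with copies of a gene as separate rows, and describe the spread between rows. The tcf21 transcript had 1266 and 3738 reads, and this level does not check the labels, since a morpholino need not lower its target's RNA. Cardiac muscle markers were abundant in both libraries, with 65580 and 47250 CPM summed over 11 rows in control-MO and Tcf21-MO.

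Of the 50 rows, 40 had at least 20 reads over both libraries and were compared. Scaled by TMM factors, 4 were at least 2-fold higher in the Tcf21-MO library with a 95% counting interval that excluded a ratio of 1, and 0 were at least 2-fold lower. The 4 were the S copy of transferrin (tf), the fibrinogen beta chain gene fgb, the fatty acid-binding protein gene fabp4 and the receptor gene vldlr. They made up 10% of the compared rows. Of all 8132 transcripts compared, 2.67% were called higher and 2.4% lower by the same rule. At a threshold of 1.5-fold, 8 members (20%) were higher and 3 (7.5%) lower, against 7.82% and 6.67% of all transcripts. The additional higher rows were fgg, serpinf2 and the L copies of tf and ldlr, and the lower rows were apoa1, ahsg and fabp7. The 4 had 47 to 658 reads over both libraries. No member was at 0 in both libraries except apob, serpina6 and serpinb5.

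With differences of any size counted, more member intervals lay above 1 than below it. The interval lay above 1 for 17 of the 40 members and below 1 for 6, while 29.8% of all transcripts lay above and 28.4% below. The 17 include the 4 members called at least 2-fold higher. By log2 ratio alone, 23 members lay above 0 and 17 below. For the other 17 members (42.5%) it included 1, against 41.8% of all transcripts. The median log2 ratio of the compared members was 0.09 (95% order-statistic interval -0.03 to 0.38), and that of all transcripts was 0.00. This interval reached below 0. Log2 ratios ran from -1.17 for fabp2 to 2.70 for tf.

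**Figure D1:**
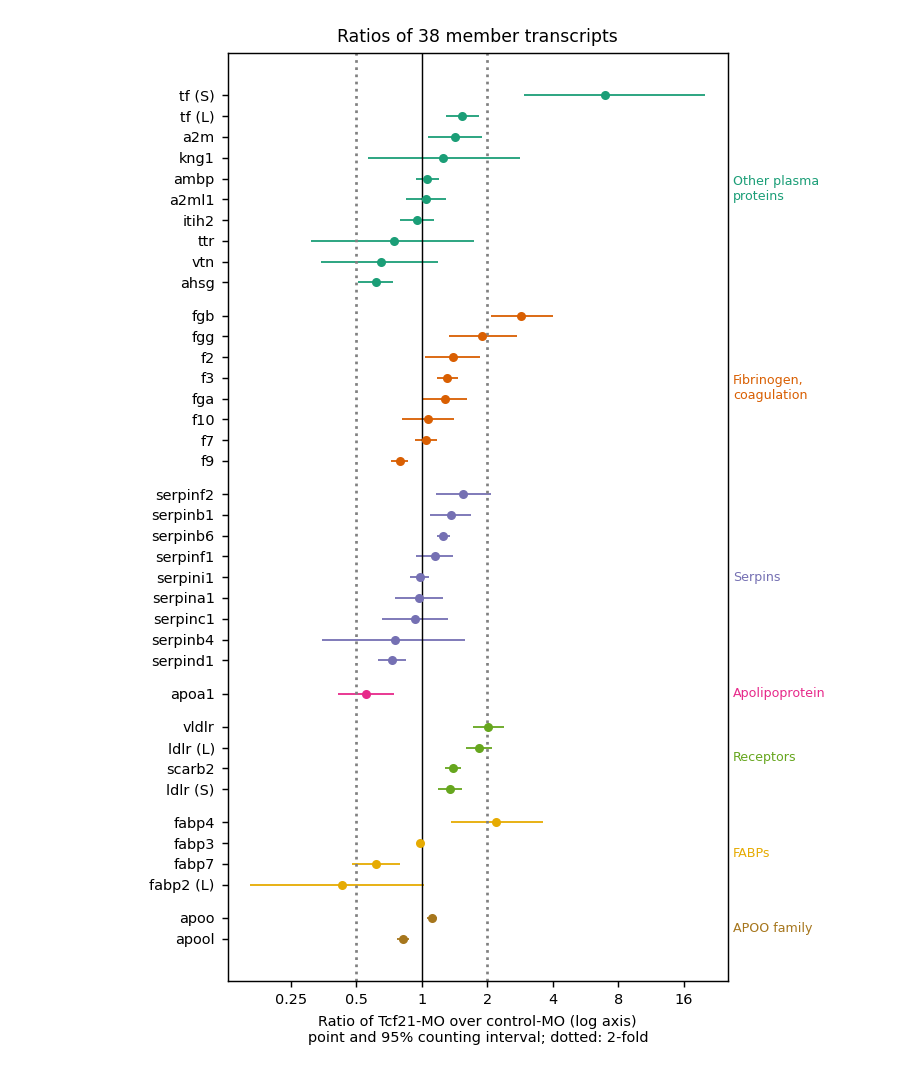
Ratio of Tcf21-MO over control-MO on a log axis for 38 of the 40 compared members, grouped by role, with 95% counting intervals. A solid line marks a ratio of 1 and dotted lines mark 2-fold. The intervals of 17 members lie above 1 and those of 6 below it, and the S copy of tf lies farthest to the right.

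Most of these genes were weakly expressed in the heart. Levels that compare genes are given as RPKM, the CPM divided by the transcript length in kb, averaged over both libraries unless a library is named. The median level of all listed transcripts was 11.6 RPKM, and 40 of the 50 members lay below it, 25 of them in the lowest 25% of all rows. The 10 members above the median were mostly genes whose products work inside cells or in membranes. The heart-type fatty acid-binding protein gene fabp3 was the highest at 222 RPKM, which placed it 408th of all rows. It was followed by apoo at 148 RPKM and apool at 97.8 RPKM, and only these 3 members reached the top 10% of rows. Next came the intracellular serpin gene serpinb6 (55.6 RPKM) and the neuroserpin gene serpini1 (25.8 RPKM). The first gene of a secreted liver protein in this order was ambp at 17.6 RPKM, ahead of the tissue factor gene f3 (16.6), scarb2 (16.5) and f7 (12.9).

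**Figure D2:**
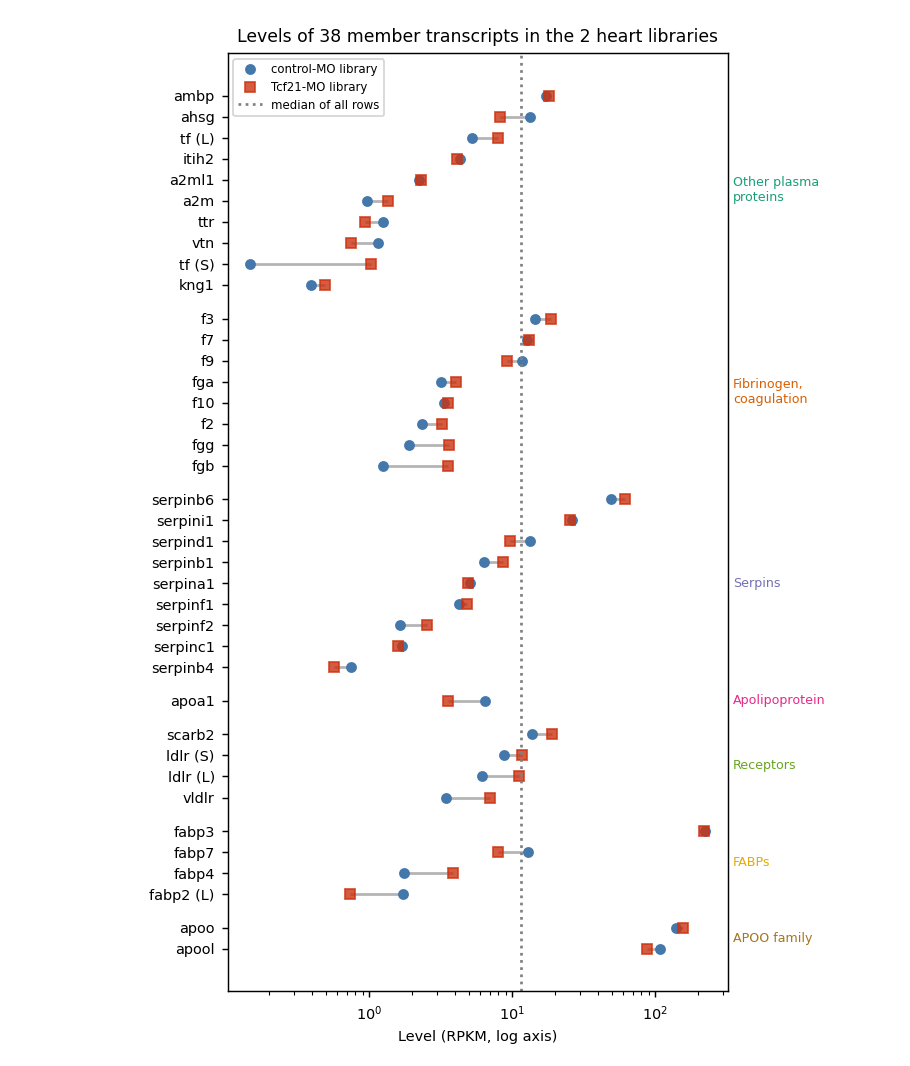
Level per transcript length (RPKM, log axis) of 38 of the 40 compared members in the control-MO library (circles) and the Tcf21-MO library (squares), grouped by role, with the median of all rows as a dotted line. The 2 APOO family rows and fabp3 stand far to the right, and most plasma protein rows lie left of the median of 11.6.

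Among the plasma carriers, the defining product of hepatocytes was nearly undetected. Albumin (alb), the most abundant protein of blood plasma, had 2 reads in each library for its S copy, and 0 and 1 read for a row with no entry in the name table. All 4 values are at or under the limit that a count of 0 allows, so no ratio is given. The transthyretin gene ttr, whose product carries thyroid hormone, had 15 and 11 reads in control-MO and Tcf21-MO, and its interval (0.310 to 1.74) was too wide to place it on either side of 1. By contrast, ambp, which encodes the precursor of alpha-1-microglobulin and bikunin, had 521 and 542 reads, a ratio of 1.06 (0.938 to 1.20). The gene itih2 encodes a heavy chain that is joined to bikunin in plasma, and it had 246 and 229 reads, a ratio of 0.948 (0.788 to 1.14). Both intervals excluded a 1.5-fold difference in either direction.

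Transferrin, the iron carrier of plasma, was measured by rows for both of its homeologs, the paired gene copies on the L and S subgenomes of this species. The L copy had 217 reads in control-MO and 327 in Tcf21-MO, a ratio of 1.53 (1.29 to 1.83). The S copy had 6 and 41 reads, a ratio of 6.96 (2.94 to 20.1). Both copies were higher in the Tcf21-MO library, and the L copy gave most of the transcript in each library. The ratio of the S copy was 4.53 times that of the L copy (1.87 to 13.3). The S copy passed the read floor through its Tcf21-MO reads, so a large ratio was favoured by the floor. With both rows summed, the gene had 223 and 368 reads and a ratio of 1.68 (1.42 to 1.99), under the 2-fold threshold.

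The fetuin-A gene ahsg, whose product binds calcium phosphate in plasma, went the other way, with 310 and 187 reads. It was 1.63-fold lower (1.35 to 1.96) in the Tcf21-MO library. Vitronectin (vtn), an adhesive plasma and matrix protein, had 30 and 19 reads and an interval that included 1 (0.343 to 1.18), as did the kininogen gene kng1 with 13 and 16 reads (0.565 to 2.83). The alpha-2-macroglobulin gene a2m, known in Xenopus embryos as endodermin, had 85 and 118 reads and a ratio of 1.41 (1.06 to 1.89). Its relative a2ml1 had 181 and 186 reads, a ratio of 1.05 (0.848 to 1.29).

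The fibrinogen chains are secreted as a hexamer that holds each chain in equal number. The fgb transcript had 53 reads in control-MO and 149 in Tcf21-MO, and was 2.86-fold higher (2.08 to 4.0). The gamma chain gene fgg had 51 and 95 reads and a ratio of 1.90 (1.34 to 2.72), just under the threshold. The alpha chain gene fga had 138 and 173 reads and a ratio of 1.28 (1.02 to 1.61). All 3 chains were thus higher in the Tcf21-MO library, by different amounts. The ratio of fgb was 2.24 times that of fga (1.502 to 3.37), while the factor between fgb and fgg (1.51, 0.924 to 2.46) and that between fgg and fga (1.49, 0.971 to 2.29) had intervals that included 1. Per length, the control-MO levels were 3.17 RPKM for fga, 1.91 for fgg and 1.24 for fgb. In the Tcf21-MO library they were 4.05, 3.63 and 3.55 RPKM. The fga level was therefore 2.55 times that of fgb in control-MO and 1.14 times in Tcf21-MO. The rows for fgb and fgg are L copies, separated by 1 coding gene in the name table, whereas the fga row is an S copy, so the chains were not compared within a subgenome.

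**Figure D3:**
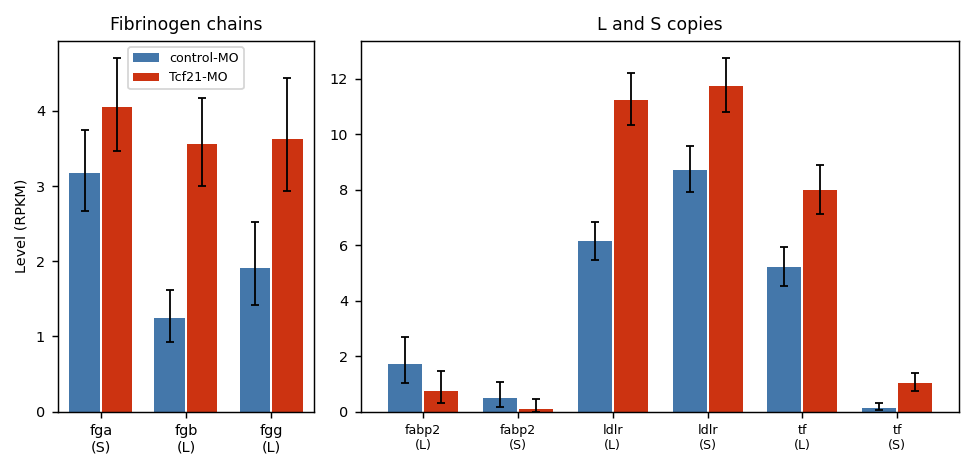
Level per transcript length (RPKM) in the control-MO (left bar) and Tcf21-MO (right bar) libraries, with 95% counting intervals, for the fibrinogen chains (left panel) and for fabp2, ldlr and tf, each with a row for its L and its S copy (right panel). The 3 chains lie between 1.24 and 3.17 in control-MO and between 3.55 and 4.05 in Tcf21-MO, and both copies of ldlr and of tf are higher in Tcf21-MO.

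The genes f2, f7, f9 and f10 encode vitamin K-dependent proteases of the clotting cascade. The prothrombin gene f2 had 84 and 114 reads, a ratio of 1.38 (1.03 to 1.86). The intervals of f7, with 573 and 588 reads (0.930 to 1.18), and of f10, with 108 and 113 reads (0.811 to 1.40), included 1. The gene f9 had 1069 reads in control-MO and 830 in Tcf21-MO, 1.26-fold lower (1.15 to 1.39), the only row of this group with an interval below 1. Tissue factor (f3) is a membrane protein that starts coagulation when blood meets cells outside the vessel lining. It had 572 and 732 reads and a ratio of 1.30 (1.17 to 1.46). Over the 8 rows of fibrinogen and coagulation factors, 5 had intervals above 1, 1 below 1 and 2 that included it, and 1 passed the 2-fold rule. For all transcripts, 29.8% of intervals lay above 1 and 28.4% below, and 2.67% were called higher.

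Genes of coagulation and fibrinolysis outside the symbol rule included larger differences. Of 21 rows compared, 5 passed the 2-fold rule upward and 1 downward. The median log2 ratio was 0.38 (order-statistic interval over rows 0.07 to 0.90). Among all compared transcripts, 2.67% passed upward and 2.4% downward. The tissue plasminogen activator gene plat had 979 and 2746 reads and was 2.86-fold higher (2.66 to 3.08). Annexin A2 (anxa2), a surface protein that binds plasminogen and its activator, was 2.01-fold (1.97 to 2.06) and 2.39-fold (2.29 to 2.49) higher for its L and S copies. Another was ggcx, the carboxylase that modifies the vitamin K-dependent factors, with 1357 and 3164 reads, 2.37-fold higher (2.23 to 2.53). The lower row was the platelet glycoprotein gene gp9, with 107 and 48 reads.

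No serpin of the 13 rows passed the 2-fold rule. Of the 9 compared, 3 had intervals above 1, 1 below 1 and 5 that included 1, with a median log2 ratio of -0.03. The shares above and below 1 were 33.3% and 11.1%, against 29.8% and 28.4% of all transcripts. The alpha-2-antiplasmin gene serpinf2, whose product inhibits plasmin, had 79 and 120 reads and the highest ratio, 1.55 (1.16 to 2.08). The clade B genes serpinb1, for an inhibitor of neutrophil elastase, and serpinb6 had ratios of 1.35 (1.09 to 1.68) and 1.26 (1.17 to 1.35), the latter from 1327 and 1637 reads. The heparin cofactor II gene serpind1, a thrombin inhibitor, had 439 and 313 reads, 1.38-fold lower in Tcf21-MO (1.19 to 1.60).

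The remaining serpins past the minimum of 20 reads had intervals that included 1. They were serpini1, with 769 and 737 reads (0.881 to 1.08), the alpha-1-antitrypsin gene serpina1, with 127 and 121 (0.750 to 1.26), the pigment epithelium-derived factor gene serpinf1, with 198 and 223 (0.943 to 1.40), the antithrombin gene serpinc1, with 71 and 65 (0.656 to 1.32), and serpinb4, with 19 and 14 (0.348 to 1.58). The interval of serpini1 excluded a difference of 1.5-fold, while that of serpinb4 did not exclude 2-fold. The clade A genes serpina3 and serpina3k had 0 reads in control-MO and 1 and 2 in Tcf21-MO, and serpina6 had 0 in both, as had the maspin gene serpinb5. The rows of serpina3, serpina3k and serpina6 are neighbours or near neighbours in the name table, with 0 or 1 coding gene between them, and serpinb1 and serpinb6 are adjacent there too.

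No row matched by the rule carried an apoc, apod, apoe, apoh or apom symbol, so the apolipoprotein group held 4 rows. Of these, apoa1 alone passed the read floor. This gene encodes the main protein of high-density lipoprotein and had 134 reads in control-MO and 73 in Tcf21-MO, so that it was 1.80-fold lower (1.35 to 2.43). This is under the 2-fold threshold, and no other member with an interval below 1 lay closer to it. The genes apoa4 and apoa5, separated by 1 coding gene in the name table, had 3 and 8 reads and 4 and 6 reads, under the read floor. The apob row had 0 reads in both libraries. Its listed length is 1642 bp, which can hold only a piece of the very long apob message, so this row tests only that stretch.

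The rows of the receptor group were expressed at 5.23 to 16.5 RPKM. The gene of the very low-density lipoprotein receptor, vldlr, had 221 and 437 reads and a ratio of 2.01 (1.71 to 2.38). It stood at the threshold, and with counts scaled to the total its log2 ratio was 0.97, under the 2-fold rule. The low-density lipoprotein receptor gene ldlr had 316 and 568 reads for its L copy, a ratio of 1.83 (1.59 to 2.11), and 437 and 578 reads for its S copy, a ratio of 1.35 (1.19 to 1.53). Both copies were higher in Tcf21-MO, and the ratio of the L copy was 1.36 times that of the S copy (1.12 to 1.64). In control-MO the S copy was the higher of the pair, at 8.71 against 6.13 RPKM, and in Tcf21-MO the copies lay at 11.7 and 11.2 RPKM. The lysosomal membrane protein gene scarb2 had 966 and 1314 reads and a ratio of 1.39 (1.27 to 1.51).

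Genes of lipoprotein assembly and lipid uptake outside the rule gave 20 compared rows, of which 2 passed the 2-fold rule upward and 0 downward. Their median log2 ratio was 0.19 (order-statistic interval over rows 0.07 to 0.44). By the same rule, 2.67% of all transcripts were higher and 2.4% lower. The phospholipid transfer protein gene pltp had 175 and 597 reads and was 3.47-fold higher (2.93 to 4.14). The sterol synthesis gene hmgcs1 had 779 and 1037 reads and a ratio of 1.36 (1.23 to 1.49).

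Levels of the fatty acid-binding proteins ran from 0.291 to 222 RPKM. The cardiac form fabp3 had 6691 and 6460 reads, a ratio of 0.983 (0.9501 to 1.02), the narrowest interval of the members whose interval included 1. The form known from fat cells, macrophages and some endothelia, fabp4, had 27 and 58 reads and was 2.19-fold higher (1.36 to 3.59). The form known from brain and glia, fabp7, had 162 and 98 reads, 1.62-fold lower in Tcf21-MO (1.26 to 2.11). The intestinal form fabp2 had 19 and 8 reads for its L copy (ratio 0.429, 0.162 to 1.03) and 6 and 1 for its S copy. Neither row was called, and the summed gene, with 25 and 9 reads, was 2.73-fold lower with an interval of the ratio from 0.151 to 0.812.

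The APOO family genes encode subunits of the complex that shapes mitochondrial cristae and carry an apolipoprotein name by history. The apoo transcript had 2390 and 2610 reads, a ratio of 1.11 (1.05 to 1.18), and apool had 2165 and 1736 reads, 1.22-fold lower in Tcf21-MO (1.15 to 1.30). Their ratios lay on opposite sides of 1, and both differences were smaller than 1.5-fold.

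**Figure D4:**
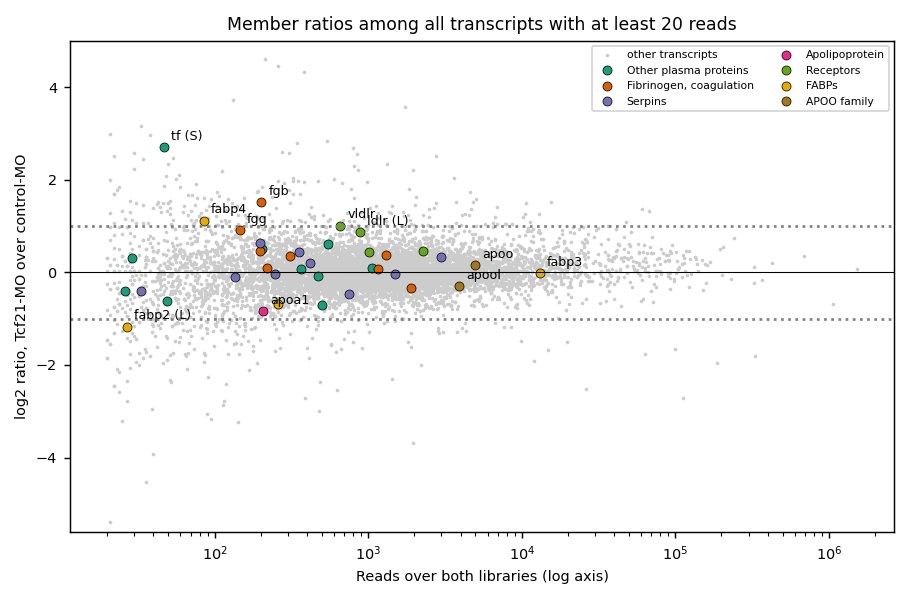
Log2 ratio of Tcf21-MO over control-MO against the summed reads of both libraries (log axis) for all 8132 transcripts with at least 20 reads, with the 40 members coloured by role and dotted lines at 2-fold. The S copy of tf, fabp4 and the L copy of fabp2 lie among transcripts with few reads, where the spread of all transcripts is wide.

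Markers of cell types that can supply these transcripts differed between the libraries, and the part they play in the member ratios was not tested. In bulk tissue, fewer cells of a type and less RNA per cell cannot be told apart. Among other genes of liver products and liver enzymes, 21 rows were compared, and 7 passed the 2-fold rule upward and 2 downward. Their median log2 ratio was 0.22 (order-statistic interval over rows -0.06 to 1.05). For this list and those below, the shares of all transcripts called were 2.67% higher and 2.4% lower. The 27 listed rows summed to 429 CPM in control-MO and 597 in Tcf21-MO. These were 7656 and 10467 reads, of which the complement gene cfh gave 1083 and 3537, most of the difference. The higher rows held the complement genes c3 (44 and 261 reads), c4a (39 and 234), cfb (39 and 80), cfh (1083 and 3537) and masp1 (139 and 302). The others were cyp3a4 (260 and 517) and the vitamin D-binding protein gene gc (7 and 18). The gc row passed the read floor through its Tcf21-MO reads, so a large ratio was favoured by the floor. The lower rows were pck1, an enzyme of glucose synthesis, with 591 and 204 reads, and hpd, an enzyme of tyrosine breakdown, with 671 and 305.

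Some genes that mark hepatocytes were near 0, as alb was. The urea cycle gene cps1 had 3 and 2 reads, otc 2 and 4, and the liver transcription factor gene hnf4a 8 and 3. Another urea cycle gene, arg1, was not near 0, with 53 and 206 reads, and is counted below with the leukocyte markers. Other hepatocyte markers were not near 0, among them ambp (521 and 542 reads), ahsg (310 and 187), apoa1 (134 and 73) and serpina1 (127 and 121). The liver transcription factor gene hhex had 247 and 233 reads. Of 12 compared rows of liver transcription factors, 1 was higher, the S copy of cebpb (24 and 52 reads). The 2 lower rows were the L copy of foxa1 (19 and 4 reads) and prox1 (188 and 87). The L copy of foxa1 passed the read floor through its control-MO reads, so a low ratio was favoured by the floor. The S copy of foxa1 had 15 and 9 reads and an interval that included 1 (0.236 to 1.49). The acute-phase regulator gene cebpd had 898 and 1728 reads and a ratio of 1.96 (1.81 to 2.13), under the threshold.

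Leukocyte and macrophage markers had intervals above 1 in 10 of 10 rows, of which 4 were at least 2-fold higher, and summed to 287 CPM in control-MO and 469 in Tcf21-MO. The 4 were mmp9, tyrobp, ncf4 and arg1, which is also a urea cycle gene. Of all transcripts, 29.8% had intervals above 1, 2.67% were called higher and 2.4% lower. Of the leukocyte sums, mmp9 gave 71.2 and 171 CPM, and mpo gave 132 and 171 CPM. Epicardial markers were at least 2-fold higher in 6 of 12 rows and summed to 1297 and 2636 CPM. Most of this sum was the keratin gene krt8, with 803 and 1536 CPM, and the list holds tcf21 itself. The intervals of 10 epicardial rows lay above 1, and those of upk1b and sema3d included 1. Erythroid markers were at least 2-fold lower in 15 of 19 rows and summed to 38540 and 10400 CPM. Thrombocyte markers, of which gp9 alone was at least 2-fold lower among 8 rows, summed to 401 and 387 CPM. Endothelial markers, with lmo2 alone at least 2-fold lower among 11 rows, summed to 507 and 460 CPM. Of the endothelial sum, lmo2 gave 111 and 48.5 CPM, a larger fall than that of the whole list. Intervals of 3 endothelial rows lay above 1 and of 3 below it. No cardiac muscle row passed the 2-fold rule, but 9 of 11 intervals lay below 1 and 2 above. For all transcripts, 28.4% lay below and 29.8% above. Of the cardiac sums of 65580 and 47250 CPM, myh6 gave 36810 and 23050. Beside the intestinal gene fabp2, pancreas and gut markers summed to 14.6 and 5.70 CPM over 14 rows. Of these, 3 rows were compared and 2, cela1 and ctrb1, were at least 2-fold lower. The insulin gene (ins) was at 0 in both of its rows, as was prss1.

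**Figure D5:**
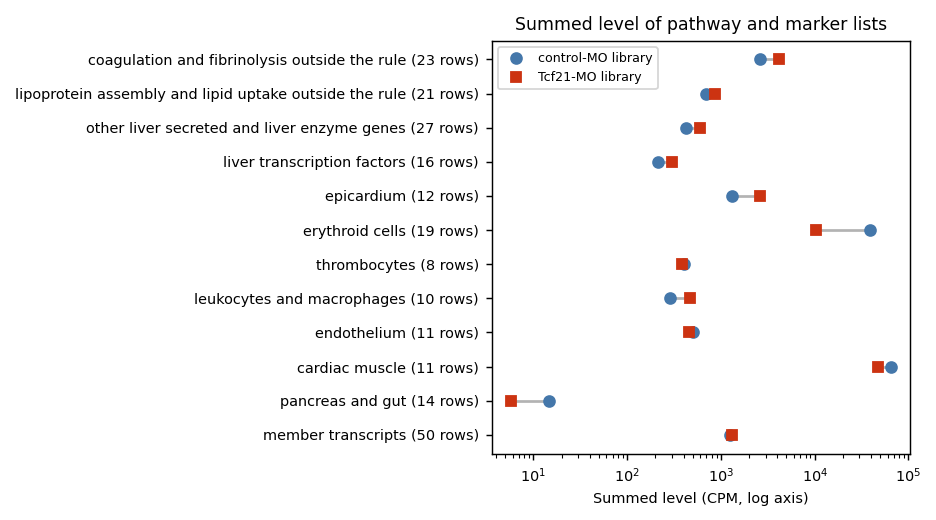
Summed level in CPM (log axis) of each pathway or marker list and of the 50 member rows, in the control-MO library (circles) and the Tcf21-MO library (squares). Erythroid markers stood at 38540 and 10400, epicardial markers stood at 1297 and 2636, and the members at 1242 and 1312. Of the epicardial sums, the keratin gene krt8 gave 803 and 1536.

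The summed level of all members was similar in both libraries. Of their 22182 and 23012 reads, fabp3 held 6691 and 6460 and the APOO genes 4555 and 4346. Together the 50 rows took 0.126% of control-MO reads and 0.130% of Tcf21-MO reads. The sums by role were 148 and 159 CPM for fibrinogen and coagulation factors, 178 and 196 CPM for serpins, and 175 and 231 CPM for the receptors. They were 91.0 and 95.7 CPM for the other plasma proteins, 386 and 378 CPM for fatty acid-binding proteins, 255 and 248 CPM for the APOO family, and 7.89 and 4.96 CPM for apolipoproteins. The counting intervals of 26 of the 40 compared members (65.0%) lay wholly within 2-fold of equality, and those of 16 (40%) within 1.5-fold. For all transcripts these shares were 85.7% and 65.4%. The compared members had a median of 394 reads over both libraries and all compared transcripts a median of 1064, and the part of this depth in the shares was not tested.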

How the data were processed

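Per the file headers, the table the authors deposited gives raw read counts of both libraries for 8879 RefSeq transcripts, with symbol and transcript length in bp. Per the submitters' processing notes, SAMtools 0.1.18.0, Bowtie2 2.0.0.6 and CASAVA 1.7 were used, in roles that are not stated. The sources used here do not give the reference build, counting rule, strand use or treatment of reads shared by homeologs, so the values of close copies are uncertain. The deposited lengths are another kind of value and were used only for levels per length.

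Members were matched by symbol. TMM factors from edgeR 4.0.16 in R 4.3.3 were used for scaling, with values of 1.01 for control-MO and 0.987 for Tcf21-MO. Ratios are scaled counts of Tcf21-MO over control-MO with 95% exact binomial (Clopper-Pearson) intervals. Log2 ratios had 0.5 counts added. Rows with at least 20 reads over both libraries were compared, and a row was called when its log2 ratio passed 2-fold and its interval excluded 1. Differences between copies or chains have exact conditional odds-ratio intervals, which cover counting error only. Depth was 17636925 and 17767221 reads.

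A name table of assembly version 10.1 held 48 of the 50 member accessions and was used for L and S names and gene order only. The members, lists and rules were chosen with earlier results of these data known. Named rows were those past the 2-fold rule, the 10 highest levels, the extremes of each role, copies, rows at 0 and rows near the threshold. Some genes that this rule selects are left out of the text and the plots, but stay in the counts. Scaling, read floor, threshold, added count and summed copies were varied, as were, after seeing the data, the symbols of the name table and the APOO rows. The procedure was tested on simulated counts that held counting error alone (SciPy 1.17.1, pandas 2.3.3, NumPy 2.4.6 and Python 3.11.15). That test could not assess differences between replicate libraries, because none were simulated.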

Additional observations from a re-analysis of the deposited data

How the results depend on the processing

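No paired analysis was possible because each group was 1 library. Of 4 members higher by at least 2-fold, fgb, fabp4 and the S copy of tf stayed past the rule under all 4 other scalings, and vldlr was lost with counts scaled to the total or to the total without the 50 most abundant transcripts (3 higher each). Under both of these, and with copies summed, the count of lower members was 1 (fabp2) instead of 0. Leaving out the 50 most abundant moved the median log2 ratio of all transcripts to -0.08 and that of the members to 0.00 (0.00258). With copies summed, tf left the higher members. A floor of 100 reads left 2 higher members, fgb and vldlr, and 106 lower transcripts in all. At 1.5-fold, 8 members were higher and 3 lower, among 636 and 542 transcripts, and at 4-fold 1 member (tf) was higher, among 33 higher and 34 lower transcripts. Symbols from the name table, or leaving out the APOO family, kept 4 higher and 0 lower. Of 40 member log2 ratios, 3 changed sign in some setting, those of ambp, a2ml1 and f7, each with a ratio interval that included 1. The read depth limits members with few reads, such as ttr, kng1 and serpinb4, whose intervals did not exclude 2-fold.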
